A study of Mus musculus with 3 samples.

Results

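H3K4me3 at promoters was compared between the first and the last stage of the series, early meiotic spermatocytes and elongating spermatids of the mouse. The comparison uses 2 of the 3 libraries and all 11140 promoters in the table. The early library (LZ) came from leptotene/zygotene spermatocytes and the late one (ES) from elongating spermatids. The remaining library, from pachytene/diplotene spermatocytes (PD), did not enter the rank sets or the classes by library totals. It was read as a further measurement between the compared stages. Some of the alternative scalings used below did take it in. All cells were from testes of adult C57BL/6J mice, untreated as far as the labels say. Micrococcal nuclease (MNase) fragmented the chromatin, and the same H3K4me3 antibody was used in every library. The sources used here do not give how the stages were separated or how many mice were pooled. Each stage had 1 library, so differences between stages have no replicate check and were not tested.

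H3K4me3 is a methyl mark on histone H3 that lies at start sites of transcribed genes and of genes held ready for transcription. Leptotene and zygotene are the first stages of meiotic prophase, in which programmed DNA breaks form and homologous chromosomes begin to pair. In these cells the enzyme PRDM9 also places H3K4me3 at recombination sites away from promoters. Elongating spermatids are haploid cells that reshape their nucleus, stop transcription and exchange most histones for protamines.

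The promoters carried identifiers of assembled loci, MSTRG followed by a number, and 0 of them matched a RefSeq name or accession. The stage labels could therefore not be checked against marker genes, and promoters are described below by level, rank and locus number. The LZ library had 1654906 counts over the promoters, the PD library 4826890 and the ES library 17989325. A level in CPM is the count per 1000000 of that sum, so it is a share of the counts over the promoters in the table. A gain or loss common to all promoters cannot be seen on this scale. A count of 0 allowed up to 3 counts, or 1.81 CPM in LZ and 0.167 CPM in ES. Intervals are exact 95% intervals and cover counting error only.

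The LZ and ES libraries distributed their counts over promoters differently. In LZ the levels ran from 4.83 CPM at the 10th percentile over a median of 33.8 CPM to 255 CPM at the 90th percentile, a 52.8-fold span. In ES the same percentiles were 9.17, 48.5 and 244 CPM, a 26.6-fold span. The upper ends were thus close and the lower end was raised in ES. The top 10% of promoters took 39.0% of all counts in LZ and 42.7% in ES. The lower 50% of promoters held 5.86% of the counts in LZ and 13.0% in ES. Fewer than 20 counts were found at 3953 promoters (35.5%) in LZ and at 1487 (13.3%) in ES after the ES counts were thinned to the LZ total. Weakly counted promoters were thus more frequent in LZ at equal totals. No input library was analysed here, and how much background enters these low levels was not tested.

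Most promoters differed by at least 2-fold between the stages. The rule of size asked for a CPM ratio of at least 2, after adding 1 count scaled by library size, and for at least 20 counts in the library with the larger count. Of 11130 promoters with enough counts, 8318 (74.7%) passed it. In ES, 4474 promoters (40.2% of the 11130) were higher and 3844 (34.5%) were lower. The other 2812 lay within 2-fold. The median level of the promoters higher in ES went from 8.46 CPM in early spermatocytes to 74.0 CPM in spermatids. For those lower in ES it went from 171 to 39.5 CPM, and for promoters within 2-fold from 42.3 to 39.4 CPM. The promoters higher in ES took 7.41% of all LZ counts but 63.3% of all ES counts. Those lower in ES took 71.8% in LZ and 17.0% in ES.

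**Figure D1:**
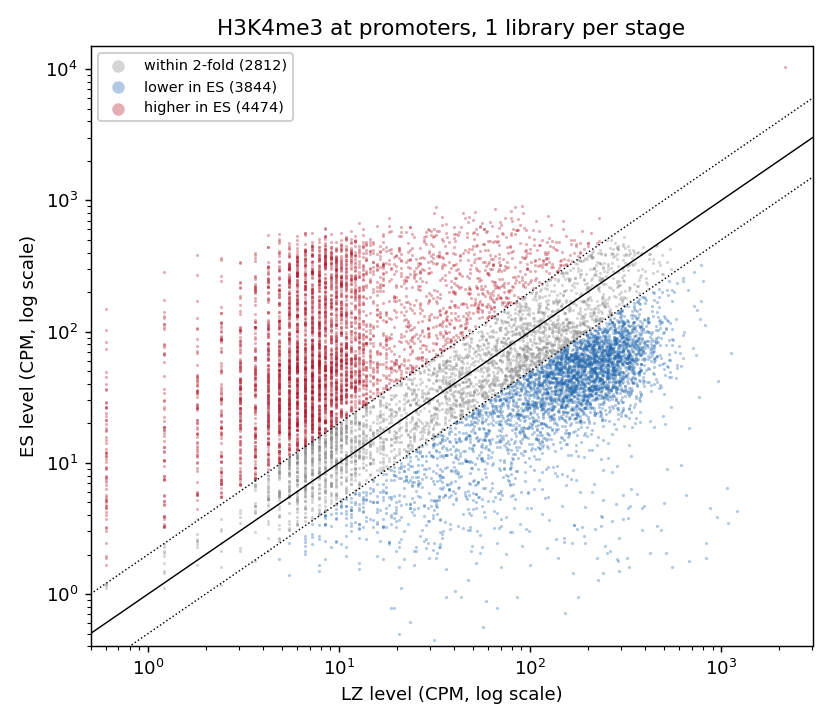
Level in elongating spermatids (ES, CPM, log scale) against level in leptotene/zygotene spermatocytes (LZ, CPM, log scale), 1 point per promoter with at least 1 count in LZ. The solid line marks equal levels and dotted lines a 2-fold difference. The promoters lower in ES form a dense cloud around their medians (LZ 171 CPM, ES 39.5 CPM), while those higher in ES spread along the whole ES axis from low LZ levels. Legend counts include promoters at 0 in LZ.

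The 2 directions differed in the size of the ratio. At a 4-fold threshold 3278 promoters (29.5%) were higher in ES and 1921 (17.3%) were lower. At 8-fold the counts were 2149 (19.3%) and 482 (4.33%). At 16-fold they were 1283 (11.5%) and 146 (1.31%), and at 32-fold 590 (5.3%) and 80 (0.719%). The number higher for each promoter lower was 1.16 at 2-fold, 8.79 at 16-fold and 7.38 at 32-fold. Among promoters higher in ES the median log2 ratio was 2.91, with 10th and 90th percentiles of 1.40 and 5.24. Among those lower in ES the median log2 ratio was -1.999, with -3.17 and -1.24 at the same percentiles. By library totals, large decreases were thus rarer than large increases, and most decreases lay in a narrower band. Ratios past 4-fold were not counted under other scalings. The 10th percentile was 9.17 CPM in ES and 4.83 CPM in LZ. How far this raised lower end of ES limits the size of decreases was not tested.

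Counting error left most of these differences past 2-fold. The interval of the ratio lay wholly past 2-fold at 3645 promoters higher in ES and at 3383 lower in ES. It lay wholly within 2-fold at 1483 promoters. Of the promoters higher in ES, 70.6% had fewer than 20 counts in LZ, so the size of those ratios rests on few LZ counts. Of the promoters lower in ES, 1.64% had fewer than 20 counts in LZ.

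The balance between the directions depended on the scaling. TMM factors and median-of-ratios factors were computed over the 3 libraries, PD included. Apart from the added count, they move every ratio by 1 constant. They aim to leave a typical promoter unchanged across the libraries, but TMM moved the median log2 ratio of ES to LZ from 0.20 to 0.47. Quantile normalization gives both libraries the same distribution, and background subtraction removes the level of the weakest promoters. Among promoters past 2-fold, the share higher in ES was 53.8% by library totals, 58.7% by TMM factors, 51.5% by median-of-ratios factors, 51.8% after background subtraction and 45.3% by quantile normalization. The median log2 ratio over all promoters was 0.20 with library totals and -0.33 with quantile normalization. Under all 5 scalings tried, 3398 promoters were higher in ES and 3312 were lower. The promoters higher under all scalings had median counts of 14 (LZ), 15 (PD) and 2089 (ES). Those lower under all scalings had medians of 294, 625 and 676 counts, in the same order.

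Along the LZ ranking, which by itself spreads the LZ levels, the ES medians covered a narrow range. Promoters were divided into groups of 10% by their LZ count. In the lowest group the median was 3.63 CPM in LZ and 23.4 CPM in ES. From the 10th to the 40th LZ percentile the ES median lay between 39.4 and 47.5 CPM. It was 34.0 CPM between the 40th and 50th percentiles and rose to 70.8 CPM in the top 10%, where the LZ median was 318 CPM. Between the lowest and the highest group the LZ medians spanned 87.8-fold, which the sorting by LZ fixes, and the ES medians 3.03-fold. Sorting by ES in turn spreads the ES levels. The lowest and the highest 5% of promoters by ES count had ES medians of 3.61 and 423 CPM. Their LZ medians were 11.5 and 27.8 CPM, but LZ medians of the 5% groups between them ran from 9.67 to 139 CPM. The ES 90th percentile was 31.7 to 36.1 times the 10th in the 4 groups below the 40th LZ percentile, 57.5 times in the next and 30.6 times in the one after that. Above the 60th percentile the spread narrowed, to 14.3 times and then to 6.08 to 7.18 times in the 3 highest groups. Over the lower 50% of promoters by LZ the rank correlation between LZ and ES was 0.12 and Pearson's r of the log2 levels 0.21, and over the upper 50% they were 0.20 and 0.16.

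**Figure D2:**
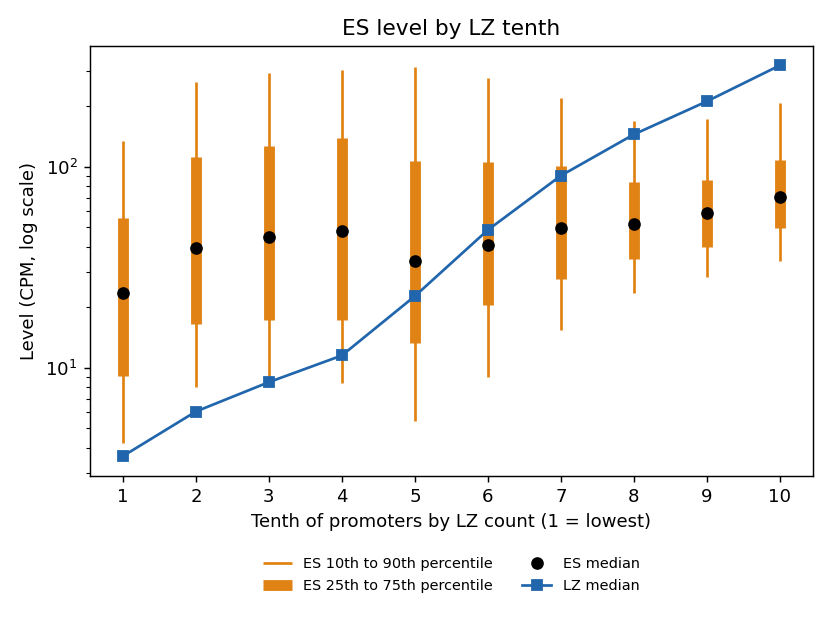
ES level (CPM, log scale) in groups of 10% of promoters ordered by LZ count, from lowest (1) to highest (10). Points are ES medians, thick and thin bars the 25th to 75th and 10th to 90th percentiles of ES, and squares the LZ medians. The ES medians stay between 23.4 and 70.8 CPM. The LZ medians, whose wide range the sorting fixes, go from 3.63 to 318 CPM. The ES bars are longest in group 5 and shorten after it.

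The share of promoters counted as higher or lower followed the LZ level, as the LZ count enters both. In the lowest 10% of LZ, 89.4% were higher in ES and 0.0898% were lower. In the top 10% of LZ, 0.0898% were higher and 88.1% were lower. Between the 50th and 60th percentiles 27.0% were higher and 31.1% were lower. The median log2 ratio went from 3.32 in the lowest group to -2.19 in the highest.

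Ranks within a library do not depend on scaling between libraries. Over all promoters the rank correlation between LZ and ES (Spearman) was 0.22, and Pearson's r of the log2 levels was 0.24. Both describe these 2 libraries, whose promoters are not independent. Of all promoters, 2771 (24.9%) stood at least 25 percentile points higher in ES than in LZ, and 3063 (27.5%) stood at least 25 points lower. A rise of at least 50 points was found at 1312 promoters (11.8%) and a fall of that size at 593 (5.32%). At 75 points the counts were 248 and 71. Moves across most of the ranking were thus more often upward.

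The relation between the ranks bent near the upper end of ES. Promoters were also divided into groups of 5% by their ES count. The median LZ level was 11.5 CPM in the lowest group and 9.67 CPM in the next. It rose to 139 CPM between the 60th and 65th ES percentiles. Beyond that it fell, to 93.1 CPM between the 75th and 80th percentiles, 42.3 CPM in the next group and 16.3 CPM between the 90th and 95th. In the top 5% of ES it was 27.8 CPM. The PD median showed the same bend, from 2.69 CPM in the lowest ES group to 148 CPM between the 60th and 65th percentiles and 5.80 CPM in the top 5%. The median LZ level was therefore highest at promoters with an intermediate ES level, 65.4 CPM at the median of their group. Split after these values were seen, the rho between LZ and ES was 0.40 over the 7798 promoters with the lower ES counts and -0.18 over the 3342 with the higher ones.

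**Figure D3:**
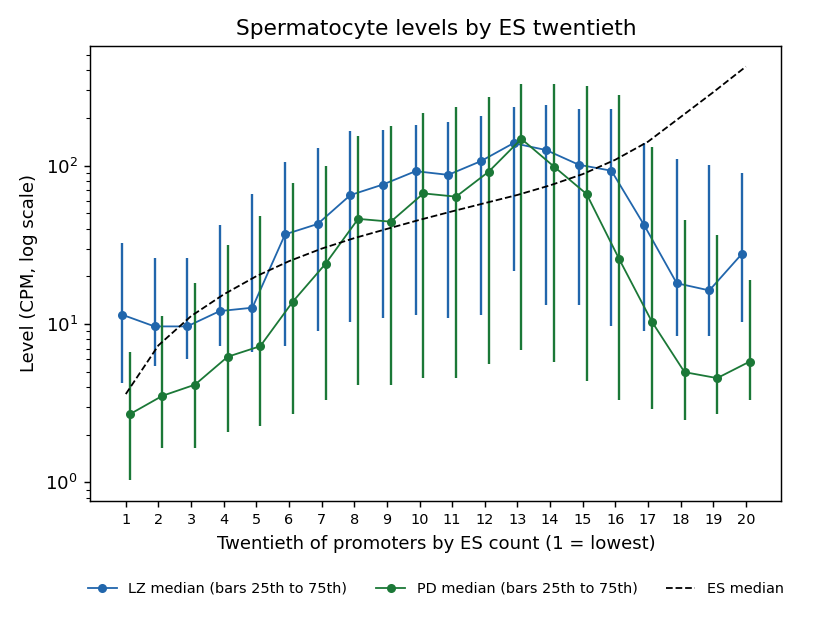
LZ and PD levels (CPM, log scale) in groups of 5% of promoters ordered by ES count, from lowest (1) to highest (20). Points are medians, bars the 25th to 75th percentiles, and the dashed line is the ES median. The LZ median rises to 139 CPM in group 13 and falls to 16.3 CPM in group 19, and the PD median falls further, to 4.56 CPM.

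Few promoters were at the top of both libraries. The LZ top 10% comprised 1115 promoters with at least 422 counts, and the ES top 10% comprised 1114 with at least 4389 counts. They shared 87 promoters, 7.80% of the LZ set (6.30 to 9.54) and 7.81% of the ES set, where 10% of all promoters were in either set. The medians of the shared promoters were 328 CPM (LZ), 370 CPM (PD) and 354 CPM (ES). A further 56 promoters of the LZ top 10% (5.02%, 3.82 to 6.47) were in the lowest 25% of ES. Their medians were 347, 3.83 and 4.89 CPM in the same order, and the 972 others had 314, 328 and 70.0 CPM. At similar LZ levels, the promoters that were very low in ES were thus mostly low in PD as well. The median percentile rank in PD was 33.0 for these 56, 93.3 for the 87 shared promoters and 90.7 for the 972 others. Of the 56, 51 (91.1%) were at least 2-fold lower in PD than in LZ, against 15 of the 87 (17.2%) and 185 of the 972 (19.0%). The share of 91.1% was 76.8% with median-of-ratios factors.

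At the other end the early levels differed less. Of the 5575 promoters in the lower 50% of LZ, 646 (11.6%, 10.8 to 12.5) reached the ES top 10% and 2069 (37.1%, 35.8 to 38.4) were in the ES lowest 25%. Over all promoters these shares were 10% and 25.1%. Those that reached the ES top had medians of 9.67 CPM (LZ), 3.31 CPM (PD) and 341 CPM (ES). Those in the ES lowest 25% had 7.86, 2.90 and 10.8 CPM. A 31.6-fold difference in ES medians, which the choice of the sets fixes, thus went with a 1.23-fold difference in LZ and a 1.14-fold difference in PD. PD was at least 2-fold lower than LZ at 470 of the 646 (72.8%) and at 1079 of the 2069 (52.2%). Over all 11130 promoters with enough counts the share was 49.8%, close to that of the 2069. These shares are by library totals and were not recomputed under other scalings. These 646 promoters made up 58.0% (55.0 to 60.9) of the ES top 10%. Another 381 (34.2%) came from the upper 50% of LZ below its top 10%, which held 39.9% of all promoters. Their medians were 94.9, 20.3 and 358 CPM.

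The PD library gave a reading between the compared stages. Among promoters higher in ES, PD was at least 2-fold under ES at 4020 of 4474 (89.9%, 88.9 to 90.7), against 52.2% of all 11130 promoters. The class was chosen for a high ES level, which also enters this comparison. The PD median was 3.11 CPM against 8.46 CPM in LZ. Their median percentile rank was 25.04 in LZ, 27.4 in PD and 66.9 in ES, so by rank they stood about as low in PD as in LZ. By CPM, PD was under both other libraries at 3630 of them (81.1%), against 54.8% of all 11130 promoters. The share of 81.1% became 58.0% for median-of-ratios factors and 45.7% for quantile normalization. For these scalings the share over all promoters was not computed. Whether these promoters passed through a minimum in PD therefore depends on the scaling. Ranks within PD do not, but they were read only for the class by library totals, which was also chosen for a low LZ level.

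Promoters lower in ES had a high PD rank at the median. Their median percentile rank went from 79.5 (LZ) over 75.1 (PD) to 42.1 (ES), and their PD median was 128 CPM. PD was at least 2-fold above ES at 2438 of 3844 (63.4%, 61.9 to 64.9), and at 71.3% to 82.8% under the other scalings. Over all 11130 promoters the share was 29.6%, and the class was chosen for a low ES level, which also enters this comparison. PD was within 2-fold of LZ at 2103 (54.7%, 53.1 to 56.3), at least 2-fold under it at 1455 (37.9%) and at least 2-fold above it at 286 (7.44%). Over all 11130 promoters these shares were 37.4%, 49.8% and 12.7%. The share within 2-fold was 30.3% for median-of-ratios factors and 59.8% for quantile normalization.

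**Figure D4:**
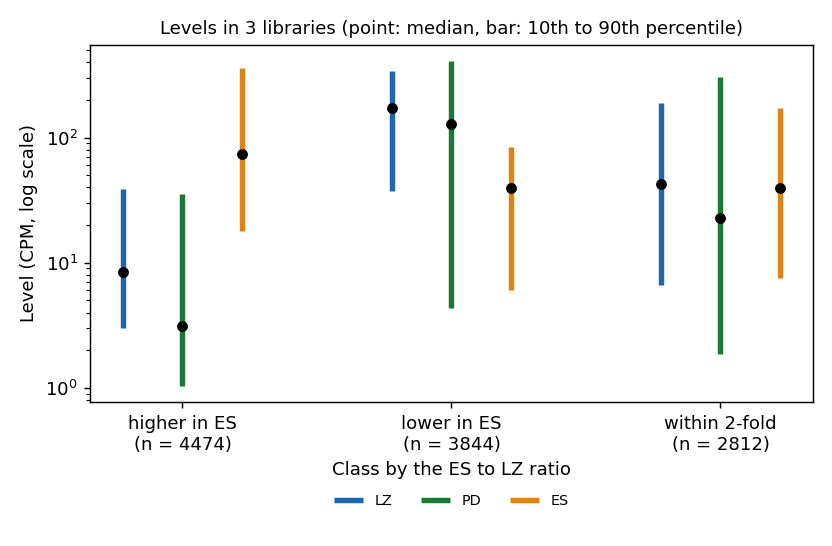
Levels (CPM, log scale) in LZ, PD and ES of promoters higher in ES than in LZ, lower in ES, or within 2-fold. Points are medians and bars the 10th to 90th percentiles. PD has the lowest median (3.11 CPM) at promoters higher in ES, and lies near LZ (128 against 171 CPM) at promoters lower in ES.

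A similar level in the compared stages did not mean a similar level in between. Of the 2812 promoters within 2-fold of each other in LZ and ES, 682 (24.3%, 22.7 to 25.9) had PD within 2-fold of both. Over all 11130 promoters with enough counts this share was lower, 7.86%. The class was chosen for close LZ and ES levels, which also enter this comparison. PD was at least 2-fold under LZ at 1304 (46.4%) and at least 2-fold above LZ at 592 (21.1%). Over all 11130 promoters these shares were 49.8% and 12.7%, so the share under LZ was close to the general one. With quantile normalization 42.9% had PD within 2-fold of both.

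The PD rank also followed the ES rank to a different degree along the LZ range. Within the LZ top 10% the rho between PD and ES was 0.43, and it was 0.30 in the group below. Between the 30th and 40th LZ percentiles it was -0.15, and in the lowest 10% it was 0.27. These values are over 1114 promoters each, which share libraries and, at low LZ levels, small counts.

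The 4 promoters with the largest ratios after counting error were read in full. They came first when promoters were ordered by whichever interval bound of the ratio was closer to 1, a choice that the intervals do not allow for. MSTRG.6228 went from 3 counts (LZ) over 15 (PD) to 6860 (ES). These are 1.81 CPM (0.374 to 5.30), 3.11 CPM (1.74 to 5.13) and 381 CPM (372 to 390), a ratio of ES to LZ of 210 (72.0 to 1020). MSTRG.607 went from 2 over 7 to 5132 counts. Its levels were 1.21 CPM (0.146 to 4.37), 1.45 CPM (0.583 to 2.99) and 285 CPM (278 to 293), a ratio of 236 (65.3 to 1950). Both promoters were among the weakest in LZ and in the top 10% in ES, and the PD level of each lay within the interval of its LZ level.

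In the other direction, MSTRG.18741 went from 1381 counts (LZ) over 24 (PD) to 34 (ES). Its levels were 834 CPM (791 to 880), 4.97 CPM (3.19 to 7.40) and 1.89 CPM (1.31 to 2.64), so LZ was 442 times ES (314 to 640). MSTRG.6923 went from 1115 over 10 to 32 counts, which are 674 CPM (635 to 714), 2.07 CPM (0.993 to 3.81) and 1.78 CPM (1.22 to 2.51). LZ was 379 times ES there (267 to 556). MSTRG.18741 ranked 9 from the top in LZ and MSTRG.6923 ranked 23, and both were near the bottom in ES at ranks 11060 and 11076. By library totals, TMM, median of ratios and quantile normalization, the log2 ratios of the pair higher in ES ran from 6.94 to 7.98. Those of the pair lower in ES ran from -9.58 to -8.19. After background subtraction they were 11.57 (MSTRG.6228), 11.15 (MSTRG.607), -12.72 (MSTRG.18741) and -12.41 (MSTRG.6923). In the weaker of LZ and ES, each promoter lay under the subtracted level, 6.04 CPM in LZ and 7.67 CPM in ES. The size of the ratios after subtraction therefore rests on the added count.

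The promoter of MSTRG.24815 had the most counts in every library, 3578 (LZ), 4549 (PD) and 185534 (ES). Its ratio of ES to LZ was 4.77 (4.61 to 4.93). Under quantile normalization its ratio is 1 by construction, as it ranked first in both libraries.

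At 108 promoters LZ had 0 counts. Their ES counts ran from 11 to 1269 with a median of 108, and their median in PD was 1 count. Against the level of 1.81 CPM that 3 counts allow in LZ, ES was at least 2-fold higher at 72 of them and the highest was at least 38.9-fold higher. In ES no promoter had 0 counts as deposited, and 15 had 0 after thinning to the LZ total.

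The last locus numbers stood apart in all 3 libraries. In order of locus number, the longest run of promoters with none in the ES top 10% comprised 684 promoters, from number 26235 to the last number, 27289. The next longest run had 59. The longest runs with none in the top 10% of the other libraries fell in the same range, with 242 promoters for LZ (numbers 26267 to 26642) and 275 for PD (26645 to 27072). The highest ES count in the run was 3940. Its 90th percentile was 127 CPM in ES against 254 CPM for the 10456 other promoters, and 147 against 259 CPM in LZ. Its medians were 12.4 against 35.7 CPM in LZ and 33.7 against 49.6 CPM in ES. The LZ top 10% held 13 of the 684 (1.90%), against 1102 of the others (10.5%). Still, 324 of the run (47.4%) were higher in ES than in LZ and 196 (28.7%) were lower, against 39.7% and 34.9% of the others. The run was not uniform. Its 206 promoters from number 27001 on had medians of 3.02 CPM (LZ), 1.24 CPM (PD) and 14.3 CPM (ES), with 61.7% higher and 21.8% lower. The 564 promoters numbered 26001 to 27000, most of them in the run, had medians of 31.4, 17.0 and 41.8 CPM. Of these, 39.5% were higher and 33.2% lower, near the shares of the others. The run also held 62 of the 108 promoters with 0 counts in LZ, 48 of them above number 27000. It was found in the values, so it is a description, and no source used here says whether locus numbers follow genome position. Nor were the loci of the run matched to a chromosome.

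**Figure D5:**
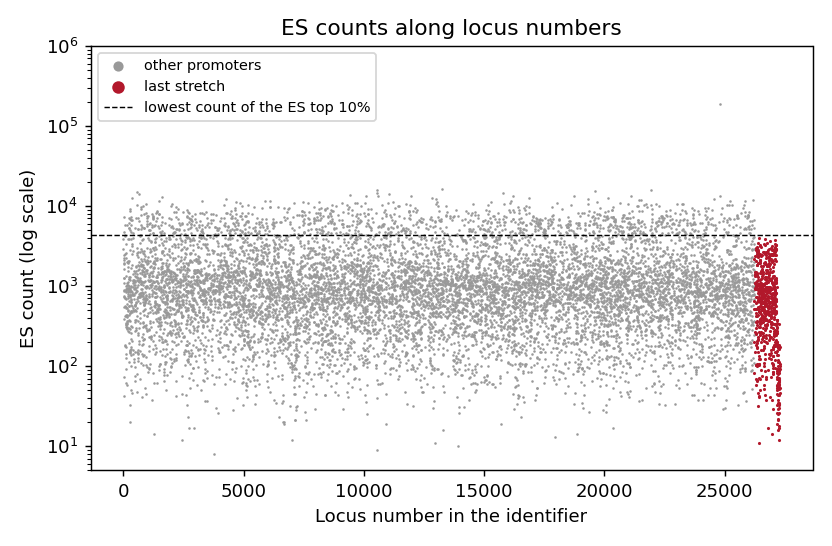
ES count (log scale) of each promoter against the number in its identifier. The dashed line is the lowest count of the ES top 10%, 4389. The last 684 promoters, in red, all lie below it and reach 3940 at most.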

How the data were processed

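The deposited table holds raw counts over promoters, not normalized, from H3K4me3 precipitation and sequencing in 3 libraries. Per the submitters' processing notes, Trim Galore, STAR and the mm10 build were used, with no versions stated. Not given in the sources used here are the counting tool, the handling of duplicates, the placement of the promoter window and the choice of promoters. MNase has sequence preferences that can move counts between promoters, and no input library was analysed here. Columns were matched to libraries by the description label and stages taken from the cell type label.

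CPM, ranks and ratios were computed with Python 3.11.15, numpy 2.4.6 and scipy 1.17.1. A ratio has 1 count added in proportion to library size. Intervals are Poisson for levels and Clopper-Pearson for ratios and shares. Those of shares treat promoters as independent. PCR copies without molecular identifiers are not independent molecules, so the intervals may be too narrow. No test of edgeR or DESeq2 was run, as each stage has 1 library. TMM factors (edgeR 4.0.16) and median-of-ratios factors (DESeq2 1.42.0) over the 3 libraries, quantile normalization and background subtraction were alternatives. The subtraction took 6.04 CPM from LZ and 7.67 CPM from ES. The rule of size was checked on simulated data. The comparison, its rules and its alternatives were chosen with earlier results of these data known. Promoters named are the first 2 in each direction and the one with the most counts. Marker genes could not be looked up, and no sequence is printed, because the identifiers match no name.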

Additional observations from a re-analysis of the deposited data

How the results depend on the processing

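Of 68 recomputed values, 35 stayed within 1.5 times the reported count or within the reported value's interval. At a 4-fold threshold 1921 promoters were lower in ES, and this threshold lowers counts by construction. The median log2 ratio of ES to LZ was 0.47 for TMM factors, 0.059 for median-of-ratios factors and 0 after background subtraction. The subtraction gives a log2 ratio of exactly 0 to promoters under the subtracted level in both libraries, and the median fell on such a tie. Under quantile normalization the median turned to -0.33, and the cause was not tested. With at least 20 counts in both libraries, the rho was 0.20, the LZ top 10% had 8.02% in the ES lowest 25%, the ES top 10% had 62.5% in the lower 50% of LZ, and the top 10% took 29.0% of the counts in LZ and 42.6% in ES. With the top 5% in place of the top 10%, 3.94% of the LZ top was in the ES top, 6.81% was in the ES lowest 25%, and 54.9% of the ES top was in the lower 50% of LZ. Without the promoter with the most counts the top 10% took 38.9% of the counts in LZ and 42.1% in ES, and thinning gave 42.9% for ES.

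The position of PD is given for TMM factors, median-of-ratios factors and quantile normalization, in this order. PD was at least 2-fold under ES at 86.4%, 86.4% and 82.8% of promoters higher in ES, and at least 2-fold above ES at 71.3%, 79.2% and 82.8% of those lower. The values of the next 4 sentences were added after seeing the data. PD was under both LZ and ES at 69.8%, 58.0% and 45.7% of promoters higher in ES. It was within 2-fold of LZ at 43.5%, 30.3% and 59.8% of those lower. It was within 2-fold of both at 21.4%, 21.8% and 42.9% of promoters within 2-fold. In the LZ top 10% that was in the ES lowest 25%, PD was at least 2-fold under LZ at 80.4%, 76.8% and 96.4%. No paired analysis was possible because a stage has only 1 library, so no replicate could be left out either. LZ had the smallest total, which limits the size of ratios at weak promoters.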
